A study of Mus musculus with 12 samples.

Results

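The yolk sac is the membrane that feeds the mouse embryo and makes its first blood before the placenta and liver take over. Wild-type yolk sac RNA was set against RNA of whole neonatal mice, and the genes enriched in the yolk sac or missing from it are described here. The members are the 6 wild-type arrays of the 12 arrays in the series, 3 from embryonic day 8.5 (E8.5) and 3 from E9.5, chosen by their labels. On each 2-colour Agilent array, RNA of a whole wild-type yolk sac (background strain CD1) carried the red dye Cy5. A common wild-type reference, prepared from whole neonatal animals of mixed 129Sv and C57BL/6 background, carried the green dye Cy3. The other 6 arrays hold yolk sacs homozygous for the V1068G change in Arid1a, the DNA-binding subunit of a chromatin remodelling complex also called Baf250a, at the same stages and against the same reference. The labels call the samples biological replicates and do not say whether a sample was 1 yolk sac or a pool.

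The value for each gene is the log2 ratio of yolk sac over reference signal, so that 1 unit is a doubling. A positive value means more of the transcript per unit of labelled RNA in yolk sac than in the whole neonate. The comparison asks which transcripts set this extraembryonic tissue apart from the mixture of organs in a newborn. The dyes were never swapped, so a dye effect of a probe and a tissue difference cannot be told apart, and the strain differs with the tissue as well. Only ratios tested to lie beyond 4-fold were therefore called enriched or depleted (limma's treat, two-sided, Benjamini-Hochberg adjusted p under 0.05). The reference was common to all arrays, and its own biological spread does not enter any test. In bulk RNA, fewer cells of a type and less RNA per cell cannot be told apart.

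As background, the visceral yolk sac is built of an absorptive endoderm facing outward, a mesodermal layer with mesothelium and blood vessels, and blood islands between them. Its endoderm takes up maternal proteins by the cubilin and megalin receptors, digests them in lysosomes and secretes plasma proteins and lipoproteins. Its blood islands make large primitive erythroblasts that carry embryonic globins. Extraembryonic tissues are also known for low DNA methylation and for transcripts that are otherwise found mainly in germ cells.

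On each wild-type array, 46.7 to 50.1% of probes were well above background in Cy5 and 55 to 58.4% in Cy3. The ratios of arrays of the same stage correlated at 0.977 to 0.988 across probes, and the median SD of a gene over the 3 arrays of a stage was 0.141. Spike-in RNAs of known ratio, reported in the file headers, gave slopes of 0.881 to 0.906 of observed on expected log ratio, which is a slight compression of large ratios. The intercept of the same spike-in line was 1.51 log2 units in E8.5 replicate 2 and 0.0412 to 0.64 on the other wild-type arrays. A pair of arrays stood apart in genes of neighbouring tissue. The summed Cy5 signal of the 9 measured trophoblast and placenta markers was 59300 in E9.5 replicate 3 and 9330 to 18000 on the other arrays. The summed signal of 18 heart muscle genes was 58300 in E8.5 replicate 2 and 29900 to 35300 on the others. Without both arrays, 820 genes were enriched and 2400 depleted, against 893 and 2475 with them.

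The labelled tissue was checked against 3 markers. Cubn, the cubilin receptor of the absorptive endoderm, had log2 ratios of 5.51, 5.23 and 5.42 at E8.5 and 5.6, 5.74 and 5.51 at E9.5. Hbb-y, an embryonic beta-like globin, had 6.86, 6.82 and 6.66 at E8.5 and 7.57, 7.74 and 7.39 at E9.5. Both lay far above the reference on all 6 arrays. Afp, the fetal plasma protein alpha-fetoprotein, had 0.75, 0.18 and 0.57 at E8.5 and 2.52, 2.44 and 2.34 at E9.5, with no overlap between the stages. Arid1a itself, the gene that is mutated in the other arrays of the series, had a mean ratio of -0.13 ± 0.04 (SE, n = 6), and 0.24 with median centring in place of the scanner software's normalization. It differed by -0.36 between E9.5 and E8.5 (adjusted p = 0.0429), a call that was lost without any 1 of the 6 arrays.

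Promoter sequences of 6 genes from both ends of the scale are shown to set the gene ends that the largest ratios belong to beside each other. Each is the 250 bases before the transcription start on the strand of the gene, from RefSeq on build GRCm38.p6, with CG dinucleotides and the letters TATAAA in capitals. Hbb-y lies at chr7:103853208-103853457 (minus strand), Cubn at chr2:13491877-13492126 (minus) and Lrp2, which encodes megalin, at chr2:69586030-69586279 (minus). Rhox5, an X-linked homeobox gene, lies at chrX:37754358-37754607 (plus). Spp1, which encodes osteopontin, lies at chr5:104434861-104435110 (plus) and Apoh, a plasma apolipoprotein, at chr11:108395047-108395296 (plus). The first 4 were enriched in yolk sac and the last 2 depleted.
Hbb-y: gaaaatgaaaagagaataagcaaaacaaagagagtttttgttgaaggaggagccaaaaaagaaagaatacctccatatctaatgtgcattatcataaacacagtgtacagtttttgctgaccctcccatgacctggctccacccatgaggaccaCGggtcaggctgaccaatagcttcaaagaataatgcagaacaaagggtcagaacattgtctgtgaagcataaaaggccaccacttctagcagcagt
Cubn: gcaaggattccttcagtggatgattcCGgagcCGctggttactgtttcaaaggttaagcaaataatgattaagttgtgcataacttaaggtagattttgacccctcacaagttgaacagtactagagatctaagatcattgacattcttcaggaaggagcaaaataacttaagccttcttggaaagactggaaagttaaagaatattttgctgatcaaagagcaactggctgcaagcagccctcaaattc
Lrp2: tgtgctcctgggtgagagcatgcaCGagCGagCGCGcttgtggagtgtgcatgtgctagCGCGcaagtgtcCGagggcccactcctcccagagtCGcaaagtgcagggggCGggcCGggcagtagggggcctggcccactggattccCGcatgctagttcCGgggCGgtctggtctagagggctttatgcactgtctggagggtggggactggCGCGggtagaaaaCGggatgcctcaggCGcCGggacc
Rhox5: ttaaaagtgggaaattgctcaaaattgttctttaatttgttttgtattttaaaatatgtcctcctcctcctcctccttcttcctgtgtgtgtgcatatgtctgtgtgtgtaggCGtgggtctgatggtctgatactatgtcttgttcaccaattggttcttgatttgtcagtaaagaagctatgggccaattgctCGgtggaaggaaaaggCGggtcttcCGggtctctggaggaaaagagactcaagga
Spp1: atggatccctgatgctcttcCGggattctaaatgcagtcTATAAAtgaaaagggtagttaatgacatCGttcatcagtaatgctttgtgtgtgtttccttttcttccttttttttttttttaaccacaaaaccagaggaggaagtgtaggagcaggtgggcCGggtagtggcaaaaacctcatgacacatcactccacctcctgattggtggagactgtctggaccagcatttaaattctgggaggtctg
Apoh: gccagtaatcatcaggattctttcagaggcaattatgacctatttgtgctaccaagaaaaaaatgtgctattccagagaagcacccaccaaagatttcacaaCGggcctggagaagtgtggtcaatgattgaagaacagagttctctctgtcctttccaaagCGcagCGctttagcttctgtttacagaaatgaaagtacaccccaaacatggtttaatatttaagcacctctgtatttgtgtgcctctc

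The 250 bases before Hbb-y held 1 CG dinucleotide, those before Cubn 2 and those before its partner Lrp2 18. Rhox5 held 4, and the depleted Spp1 and Apoh 3 each. Of the genes tested, 11269 matched a promoter sequence by symbol. The median number of CG dinucleotides was 15 over all of them, 15 over 606 enriched genes and 6 over 1664 depleted genes. The letters TATAAA on the gene strand occurred in 5.32% of all promoters, 4.62% of the enriched and 11.9% of the depleted; of the 6 sequences shown, only that of Spp1 held them. AGATAA, the core letters that GATA factors bind, was found on either strand in 6.46% of all, 7.59% of the enriched and 9.5% of the depleted. These are letter matches in 1 window per gene and show no binding.

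Of 16383 genes tested, 893 were enriched in wild-type yolk sac (5.45%) and 2475 depleted (15.1%), averaged over both stages. At E8.5 taken by itself, 779 genes (4.75%) were enriched and 2269 (13.8%) depleted. At E9.5 these were 810 (4.94%) and 2157 (13.2%). The median over all genes tested was -0.13. Past 32-fold there were 35 genes on the yolk sac side and 183 on the reference side. The 2 channels did not see every called gene: for 125 enriched genes the reference, and for 1081 depleted genes the yolk sac, was not well above background on any of the 6 arrays. Such genes are given as a lower bound, the brighter channel over the lowest signal that counted as above background. With normexp background correction and loess in place of the scanner software's own processing, 165 genes were enriched and 610 depleted; 165 and 609 of these were among the calls above. Of 186 called genes named by the rule or in the text, 74 lost their call in that setting.

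**Figure D1:**
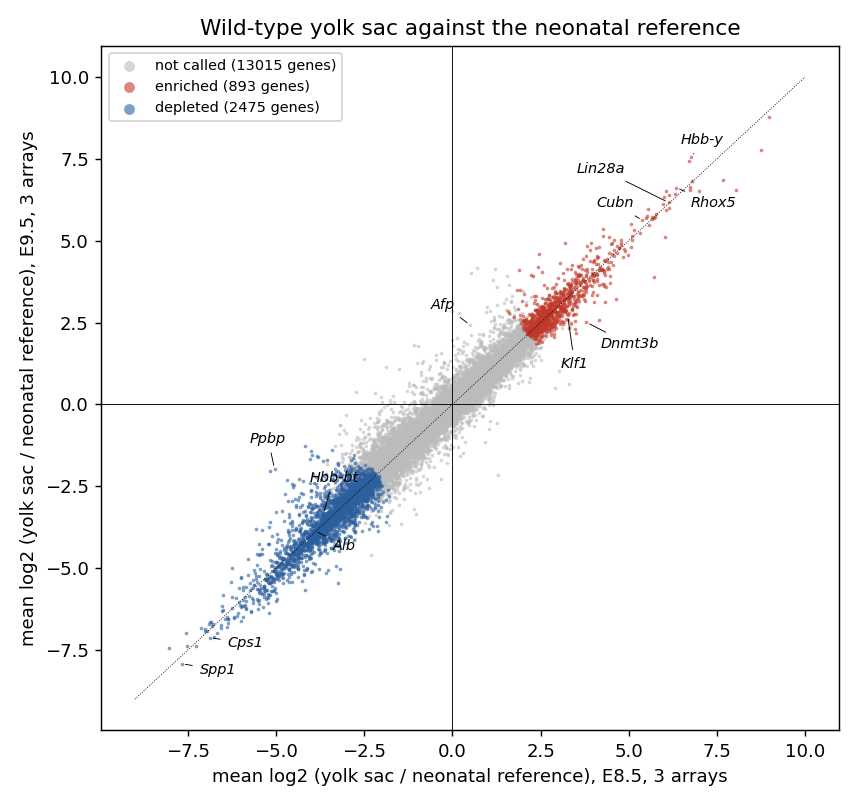
Mean log2 ratio of yolk sac over neonatal reference at E8.5 (horizontal, 3 arrays) and E9.5 (vertical, 3 arrays) for 16383 genes. Red points are the 893 enriched genes, blue the 2475 depleted and grey the rest; the dotted line marks equal ratios at both stages, and Afp and Ppbp lie above it.

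Genes of the absorptive endoderm stood high. Of 22 endocytic and lysosomal genes, 6 were enriched and none depleted, against 5.45% and 15.1% over all genes tested, and their median log2 ratio was 1.11 against -0.13. Cubn was 45.3-fold higher in yolk sac than in the reference (5.5 ± 0.05, SE, n = 6; adjusted p = 4.06e-07). Lrp2, which encodes the large receptor that works with cubilin, had 3.68, 3.74 and 3.7 at E8.5 and 3.71, 4.01 and 3.7 at E9.5, a 13.5-fold difference (adjusted p = 2.28e-06). Amn, which encodes amnionless, the subunit that brings cubilin to the surface, was 10.6-fold higher, with ratios of 3.19 to 3.49 on the 6 arrays. Dab2, the adaptor that couples megalin to clathrin, was 11-fold higher (3.46 ± 0.04). All 4 parts of this uptake apparatus were thus high on every wild-type array. Folr1, a folate receptor, at 2.4 and Myo7a, a myosin motor, at 2.75 were the other enriched members. The lysosomal end of the list was lower: the proteases Lgmn, Ctsc and Ctsh had 2.09, 2.05 and 1.91 and were not called, and Lamp2 and Psap had -0.82 and -0.77.

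Of 18 solute transporters known from absorptive endoderm, 7 were enriched and 1 depleted, with a median of 1.27. Slc13a4, a sulphate transporter, had 3.85, 4.15 and 3.93 at E8.5 and 3.87, 4.06 and 3.9 at E9.5, 15.6-fold above the reference (adjusted p = 1.82e-06). Slc23a3 was 14.9-fold higher (3.89 ± 0.07). The glucose transporters Slc2a2 and Slc2a3 had means of 3.77 and 3.68, the monocarboxylate transporter Slc16a1 3.26 and the zinc transporter Slc39a8 3.16. Slc7a9 and Slc3a1 encode the light and heavy chains of one cystine and dibasic amino acid transporter, and they parted. Slc7a9 was 8.25-fold higher in yolk sac, with 2.56 to 3.52 on the 6 arrays. Slc3a1 was not well above background in yolk sac on any array and was at least 10.4-fold lower. With normexp and loess the Slc3a1 call was lost (-1.23), and 7 of the 18 transporters were enriched and none depleted. The iron exporter Slc40a1 had 0.08 and the sodium-glucose transporter Slc5a1 -1.66, neither called.

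Among 19 endoderm transcription factors and signals, 4 were enriched and 2 depleted, with a median of 0.54. With normexp and loess none of the 19 was called in either direction, and the median was 0.13. In the deposited processing, Foxa3 was 11.9-fold higher (3.57 ± 0.12) and Hnf4a 8.2-fold (3.04 ± 0.06); both factors drive liver and visceral endoderm genes. Ihh, the hedgehog signal that endoderm sends to the mesoderm, had 2.53 to 2.8 on the 6 arrays. Foxa2 had 2.04 and was not called. The depleted members were Prox1 (-2.71) and Cebpa (-2.75), both regulators of liver cells. Cebpa was well above background in Cy5 on 3 of 6 arrays. Its depletion was lost without E9.5 replicate 2 (-2.72, adjusted p = 0.0502) and without E9.5 replicate 3 (-2.71, adjusted p = 0.0501).

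The secreted plasma proteins divided. Of 30 fetal plasma and clotting proteins, 17 were depleted and 2 enriched, with a median of -2.33. The liver of a newborn makes the same proteins. Rbp4, which carries retinol, had 2.97, 2.37 and 2.71 at E8.5 and 3.58, 3.51 and 3.56 at E9.5, 8.67-fold above the reference on average (adjusted p = 7.49e-05). Spp2, a secreted phosphoprotein, was 4.63-fold higher (2.21 ± 0.06), a call that was lost without any 1 array except E8.5 replicate 2 (2.18 to 2.22). Ttr, the thyroxine carrier that partners Rbp4, had 1.85 to 2.39 and did not pass the 4-fold test (adjusted p = 0.106). Afp averaged 1.47 ± 0.08 and was not called over both stages; at E9.5 its mean of 2.43 passed the test (adjusted p = 0.0286). Alb, which encodes albumin, lay on the other side, with -3.91, -3.77 and -4.02 at E8.5 and -3.99, -3.69 and -3.87 at E9.5. It was 14.7-fold lower in yolk sac (adjusted p = 2.26e-06). Apoh was 87.5-fold lower (-6.45 ± 0.05), Fetub 32.7-fold and complement C3 24.9-fold. The vitamin D binding protein Gc had -4.09 and haemopexin Hpx -4.5. The clotting chains Fga, Fgb and Fgg had -2.16, -2.37 and -3.09, and the Fga call was lost without 5 of the 6 arrays in turn (-2.17 to -2.14).

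Of 21 lipid transport genes, 2 were enriched and 5 depleted, against 5.45% and 15.1% over all genes tested. Their median was -0.19, and 0.29 with median centring, where 4 were enriched. Soat2, which esterifies cholesterol in liver and intestine, had 4.72, 4.35 and 4.67 at E8.5 and 4.72, 4.7 and 4.71 at E9.5, 25-fold above the reference (adjusted p = 8.68e-07). Apom, an HDL apolipoprotein, was 4.5-fold higher (2.17 ± 0.04), a call that was lost without E8.5 replicate 1 or 3 or E9.5 replicate 2 or 3 (2.16 to 2.17). The builders of large lipoproteins, Apob and Mttp, had 1.94 and 1.92, and Apoe 1.26, all short of the 4-fold test. Other Apob probes ranged from 1.9 to 4.78. Against these, the fatty acid binding proteins Fabp1 and Fabp2 were 24-fold and 21.6-fold lower, and the fatty acid transporter Cd36 had -4.31.

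**Figure D2:**
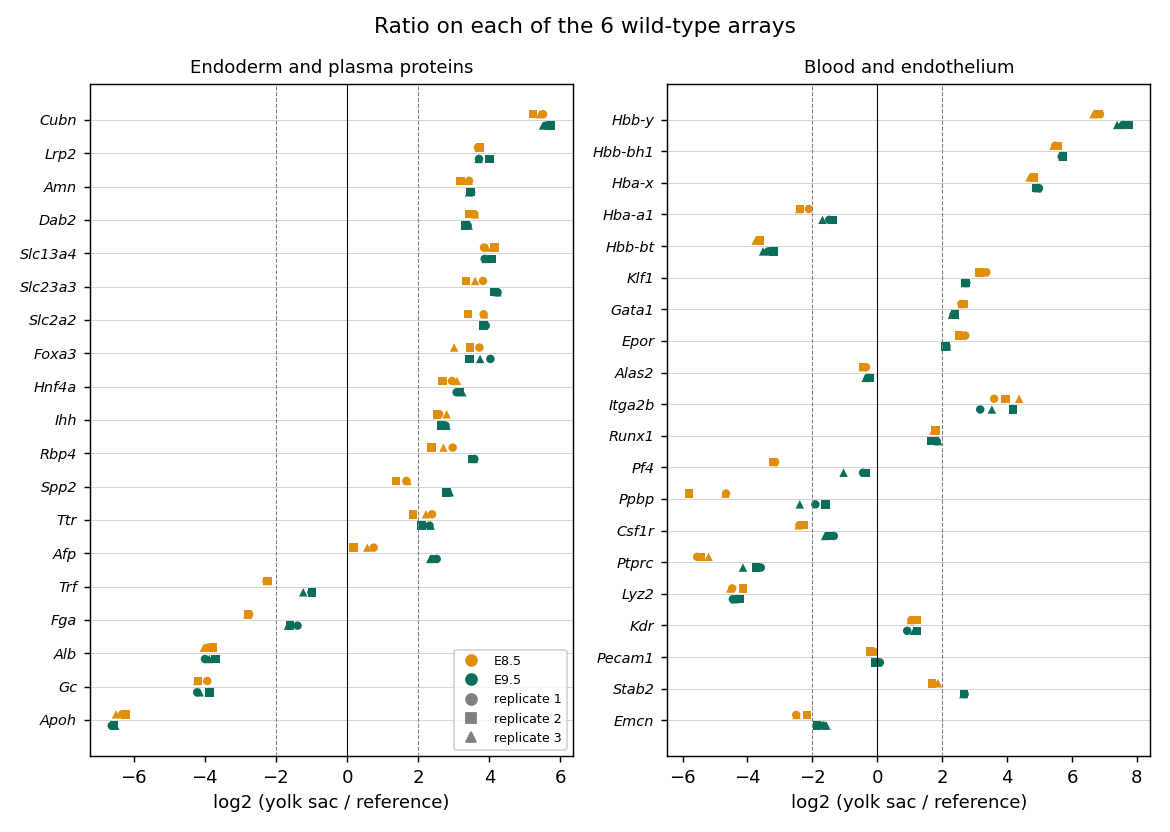
Log2 ratio of yolk sac over reference on each of the 6 wild-type arrays for endoderm and plasma protein genes (left) and blood and endothelial genes (right); colour gives the stage, shape the replicate number, and dashed lines mark 4-fold. Cubn, Lrp2, Hbb-y and Hba-x lie to the right of 4-fold on every array, Alb, Apoh and Hbb-bt to the left, and Afp moves between the stages.

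Globins separated by developmental type. Hbb-y was 144-fold higher in yolk sac (7.17 ± 0.06, SE, n = 6; adjusted p = 3.06e-07). The other embryonic globins Hbb-bh1 (5.48, 5.57 and 5.43 at E8.5; 5.68, 5.72 and 5.71 at E9.5) and Hba-x (4.69 to 4.98 on the 6 arrays) were 48.5-fold and 28.9-fold higher. Hbb-bt, an adult beta-globin, had -3.63, -3.61 and -3.75 at E8.5 and -3.36, -3.2 and -3.52 at E9.5, 11.4-fold lower (adjusted p = 3.64e-06). The adult alpha-globin Hba-a1 averaged -1.9 and was not called. Adult globin genes have near-identical copies that probes may not tell apart, so the adult values belong to the copies together. The 3 embryonic globins lay above 4-fold and Hbb-bt below it on every array.

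Other erythroid genes lay closer to the level of the newborn, which has red cell precursors of its own. Of 37 tested, 6 were enriched and 2 depleted, with a median of 0.84. Klf1, the erythroid master regulator, had 3.36, 3.15 and 3.3 at E8.5 and 2.74, 2.71 and 2.71 at E9.5, 7.98-fold higher on average. Slc25a38, the mitochondrial glycine carrier for haem synthesis, was 5.89-fold higher and Gata1 5.59-fold. The erythropoietin receptor Epor was 5.17-fold and the haem enzyme Alad 4.59-fold higher. Sptb, red cell spectrin, was called at 2.53, but its other probes ranged from -1.92 to 2.92. Alas2, which starts haem synthesis in red cells, had -0.35 (0.23 with median centring) and the anion exchanger Slc4a1 0.17. Add2, an adducin of the red cell skeleton, was called depleted at -2.46, but had 1.03 as the mean of its probes, and the call was lost without E8.5 replicate 2 (-2.43, adjusted p = 0.0515) or replicate 3 (-2.41, adjusted p = 0.0515). The call of Alad was lost without 3 of the 6 arrays in turn (2.18 each). With normexp and loess, 1 of the 37 genes was enriched and none depleted.

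Of 22 early haematopoietic, megakaryocyte and myeloid genes, 1 was enriched and 5 depleted, with a median of -1.55. These counts are near the 5.45% and 15.1% over all genes tested, and with normexp and loess they were 0 and 3. Itga2b, the CD41 integrin of platelets and of the first blood progenitors, was not well above background in the reference and was at least 11.5-fold higher in yolk sac (3.17 to 4.37). Runx1, which blood stem cell formation needs, had 1.67 to 1.87 and was not called. The macrophage receptor Adgre1 had -5.31 and the leukocyte antigen Ptprc -4.61, each with yolk sac above background on 2 of 6 arrays; another Ptprc probe had -2.5. Lysozyme Lyz2 was 20.7-fold lower. Lymphocyte and granulocyte genes gave 11 depleted and none enriched of 17 (4 depleted with normexp and loess), with S100a9 40.2-fold, Camp 32.3-fold and S100a8 32.1-fold lower.

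Endothelial genes were near the level of the whole newborn. Of 29 tested, 1 was enriched (none with normexp and loess) and none depleted, with a median of -0.08. Stab2, a hyaluronan scavenger receptor of sinusoidal vessels, had 1.71, 1.68 and 1.87 at E8.5 and 2.69, 2.67 and 2.65 at E9.5 and was 4.63-fold higher. The vascular growth factor receptor Kdr had 1.1 and the junction gene Pecam1 -0.08. Emcn and Robo4 had -2.04 and -1.71, not called.

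Mesenchymal genes were mostly depleted, with 11 of 20 lower, 2 higher and a median of -2.35. Col3a1 had -4.68, -4.91 and -4.87 at E8.5 and -3.26, -3.15 and -3.36 at E9.5, 16.4-fold lower on average, although another Col3a1 probe had -1.25. Lox, which cross-links collagen, had -4.39, with yolk sac above background on 3 of 6 arrays, and Col1a1 11.3-fold. The transcription factors Tbx20 and Hand1 went the other way. Tbx20 had 4.67 on a probe that did not see the reference and 2.3 on another that did, and Hand1 was 5.18-fold higher. With normexp and loess, 8 of the 20 were depleted and none enriched. Of 14 genes of mesothelium and simple epithelium, 2 were enriched and 1 depleted. Cldn6, a claudin of early embryonic epithelia, was 23.4-fold higher (4.37 to 4.69) and the keratin Krt18 5.14-fold. Msln, a mesothelial surface protein, was 24.4-fold lower.

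Replication and division genes were high as a group: 11 of 24 were enriched and none depleted, with a median of 2.01 against -0.13 over all genes; with normexp and loess 5 were enriched. Gins2 had 3.28, 3.15 and 3.31 at E8.5 and 3.35, 3.46 and 3.38 at E9.5, 10-fold above the reference (adjusted p = 2.2e-06). Mcm2, part of the replicative helicase, was 8.27-fold higher and Top2a, a topoisomerase of dividing cells, 7.97-fold. Mki67, a widely used proliferation marker, had -0.07, a sign that turned with normexp (0.01) and with median centring (0.61). By contrast, none of 24 broadly expressed genes was called in either direction, and their median was 0.29; the furthest were Gusb (-1.56), B2m (-1.47) and Actb (1.43).

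**Figure D3:**
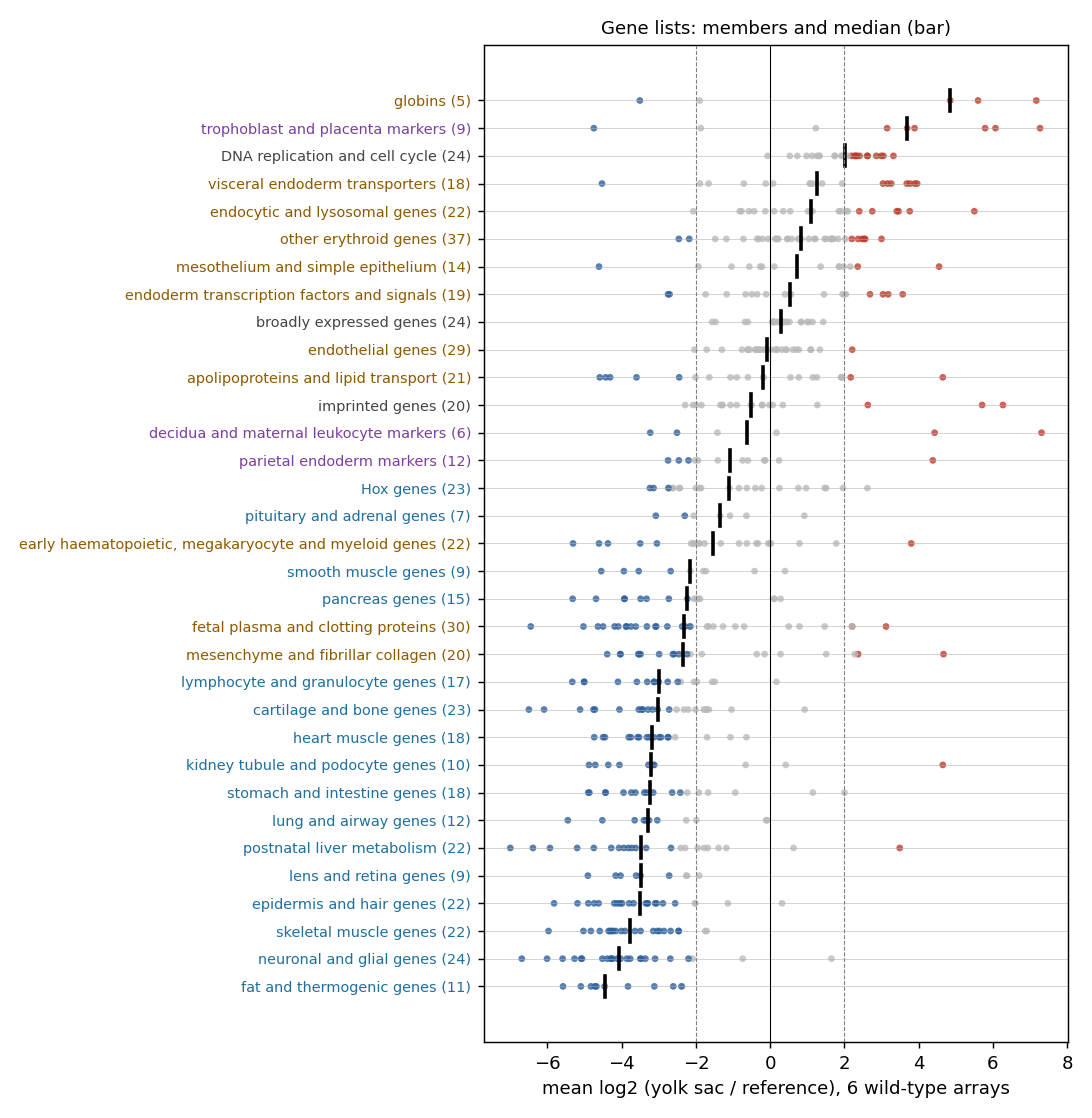
Mean log2 ratio over the 6 wild-type arrays for every tested member of each gene list (points) with the median of the list (bar). Red members are enriched, blue depleted and grey not called; the number tested stands in parentheses, and label colours mark lists for yolk sac (brown), neighbouring tissue (purple), processes (grey) and neonatal organs (blue). Fat, neuronal and skeletal muscle lists lie furthest to the left.

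The 15 highest genes seen in both channels held Cubn and the globins Hbb-y and Hbb-bh1, Phlda2 and 11 more. Rhox5 had 6.16, 6.52 and 6.38 at E8.5 and 6.61, 6.62 and 6.62 at E9.5, 89.6-fold above the reference (adjusted p = 3.06e-07). Lin28a, an RNA-binding protein that blocks let-7 maturation, was 71-fold higher (5.86 to 6.48 on the 6 arrays). Trap1a, a tumour rejection antigen gene, was 64.1-fold, Xlr5a 52-fold and Tex19.1, which is needed in the male germ line, 50.5-fold higher. Tdh, the threonine dehydrogenase of pluripotent mouse cells, was 39.1-fold, DXBay18 34.8-fold and Fmr1nb 30.6-fold higher. Car4, a membrane carbonic anhydrase, was 33.2-fold and Pigt, a subunit of the GPI transamidase, 39.4-fold higher. Each was past 2-fold on all 6 arrays, as the rule for naming them required. Ptprz1 also ranked here at 6.29 ± 0.12, but its 2 other probes had -5.48 and -3.26, so its direction depends on the probe. The mean over the Ptprz1 probes was -0.81.

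Some enriched genes were not well above background in the reference on any array. 4933402E13Rik was at least 347-fold higher in yolk sac (8.55, 9.56 and 8.82 at E8.5; 8.81, 8.63 and 8.94 at E9.5). Xlr5c was at least 28.4-fold and Zfp42, the REX1 factor of stem cells, at least 24-fold higher. Gtsf1l was at least 15.6-fold and Triml1 at least 14.8-fold higher, and Tulp2 and Dydc2 at least 22.2-fold and 21.7-fold. Dnmt3b, a DNA methyltransferase that sets methylation in the early embryo, was 8.91-fold higher, with 3.81, 3.91 and 3.69 at E8.5 and 2.27, 2.64 and 2.61 at E9.5. With normexp and loess, the calls of Xlr5c (1.69), Zfp42 (1.39), Gtsf1l (1.11), Triml1 (0.99), Tulp2 (1.32), Dydc2 (1.37) and Dnmt3b (1.54) were lost.

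Many of the largest yolk sac ratios belonged to genes on the X chromosome. Of 14209 tested genes with an official symbol, 483 lie there (3.4%). Among enriched genes 45 of 764 did (5.89%), among those past 8-fold 32 of 293 (10.9%), past 16-fold 16 of 81 (19.8%) and past 32-fold 10 of 31 (32.3%). Among depleted genes the share was 3.12% (69 of 2210), and past 32-fold 6.47% (11 of 170). The share was higher at each larger size of ratio on the yolk sac side; the difference from the reference side was not tested. The 10 past 32-fold were 4933402E13Rik, Esx1, Rhox6, Xlr5c, Mageb16, Rhox5, Trap1a, Rhox9, Xlr5a and DXBay18. The classes used the mean ratio, also where the reference was dim. For 4933402E13Rik and Xlr5c the reference was not above background on any array, and the bound of Xlr5c is 28.4-fold. Esx1, Rhox6, Mageb16 and Rhox9 were not above background in both channels on all 6 arrays. A gene dim in the reference passed the filter only where it was high in yolk sac. How far the shares depend on this was not tested. Rhox5, Rhox6 and Rhox9 are neighbours in the reproductive homeobox cluster, and Xlr5a and Xlr5c are close copies that probes may share, so these genes are not independent of each other. Esx1, a homeobox gene of the placenta, had 8.96, 8.68 and 8.63 at E8.5 and 7.98, 7.3 and 8.04 at E9.5; the reference was above background for it on 2 of 6 arrays. S100g, a calcium-binding protein of absorptive epithelia, was 26.1-fold higher. Genes X-linked and depleted included Atp1b4 (-6.93) and Smpx (-6.23), both of muscle.

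**Figure D4:**
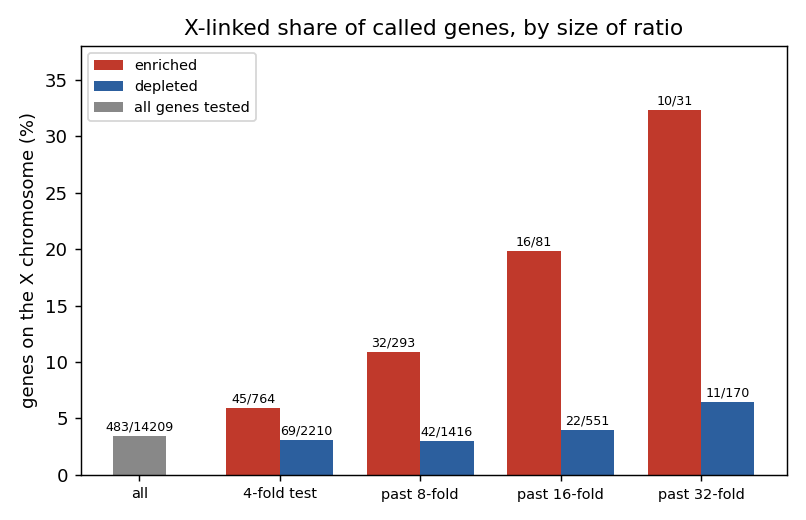
Share of genes on the X chromosome (vertical, percent) among all genes tested with an official symbol (grey), enriched genes (red) and depleted genes (blue), by the size of the mean ratio; the numbers above the bars are genes on the X over all genes in the class. The red bars go from 5.89% at the 4-fold test to 32.3% past 32-fold, while the blue bars stay at or below 6.47%.

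Some placental genes were high, but unevenly. Of 20 trophoblast and placenta markers, 9 passed the filter on dim probes, of which 6 were enriched and 1 depleted. A marker dim in the reference passes only where it is high in yolk sac, so these are not all markers; over the 18 measured without the filter, 5 were enriched, 1 was depleted and the median was 1.11. With normexp and loess, 2 of the 9 were enriched and none depleted. Tpbpa, Gcm1, Syna, Synb, Ascl2, Eomes and 5 more of the list did not pass. Prl4a1, a placental prolactin hormone, had 5.3, 6.33 and 6.79 at E8.5 and 4.08, 6.12 and 7.78 at E9.5, a spread far wider than that of Cubn. Prl3d1 ranged from 3.15 to 4.92 and Prl7a1 from 2.13 to 6.07; the Prl7a1 call was lost without 4 of the 6 arrays in turn (3.26 to 3.83). For Prl4a1, Prl3d1, Prl7a1 and Prl2c3, E9.5 replicate 3 was the highest array and E8.5 replicate 3 the highest of its stage. Prl8a2, a prolactin of decidua, ranged from 5.27 to 9 and was at least 41.7-fold higher, with E8.5 replicate 3 highest. The summed Cy5 signal of 6 measured decidual and maternal leukocyte markers, of 12 listed, was 2220 to 6860 at E8.5 and 1450 to 4130 at E9.5. Of the 6, 2 were enriched and 2 depleted, the leukocyte marker Gzma among the depleted. Neither depleted marker was well above background in yolk sac on any array. With normexp and loess none of the 6 was called, and Gzma had -0.31 and Prl8a2 2. Ms4a1, a B cell marker, was called at -2.51 but not without any 1 array except E8.5 replicate 2 (-2.54 to -2.41). The part of adhering trophoblast or decidua in these values was not tested. Rhox6 (7.27, reference above background on 2 of 6 arrays) and Rhox9 (5.79, on 5 of 6) are on this list too. Rhox9 stayed within 5.6 to 6.05, while Rhox6 ranged more widely, from 6.49 to 8.38. Elf5, a factor of trophoblast stem cells, was depleted at -4.75.

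Of 20 imprinted genes, 3 were enriched and none depleted, with a median of -0.51, and with normexp and loess 1 was enriched. Phlda2, which limits placental growth, had 5.62, 5.85 and 5.65 at E8.5 and 5.75, 5.82 and 5.57 at E9.5, 52.3-fold above the reference. Slc22a18, its neighbour, was 6.19-fold higher. Peg10, a retrotransposon-derived gene needed for the placenta, was at least 26.7-fold higher (5.45 to 7.26). The growth factor Igf2 had -1.3 and H19 0.07, so the imprinted list did not move as one. Of 12 parietal endoderm markers, the list for the neighbouring membrane, 1 was enriched and 3 depleted. Lama1, a laminin chain of basement membranes, had 4.38, with the reference above background on 2 of 6 arrays, and 2.96 on its other probe; Nid1 was 6.74-fold lower.

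**Figure D5:**
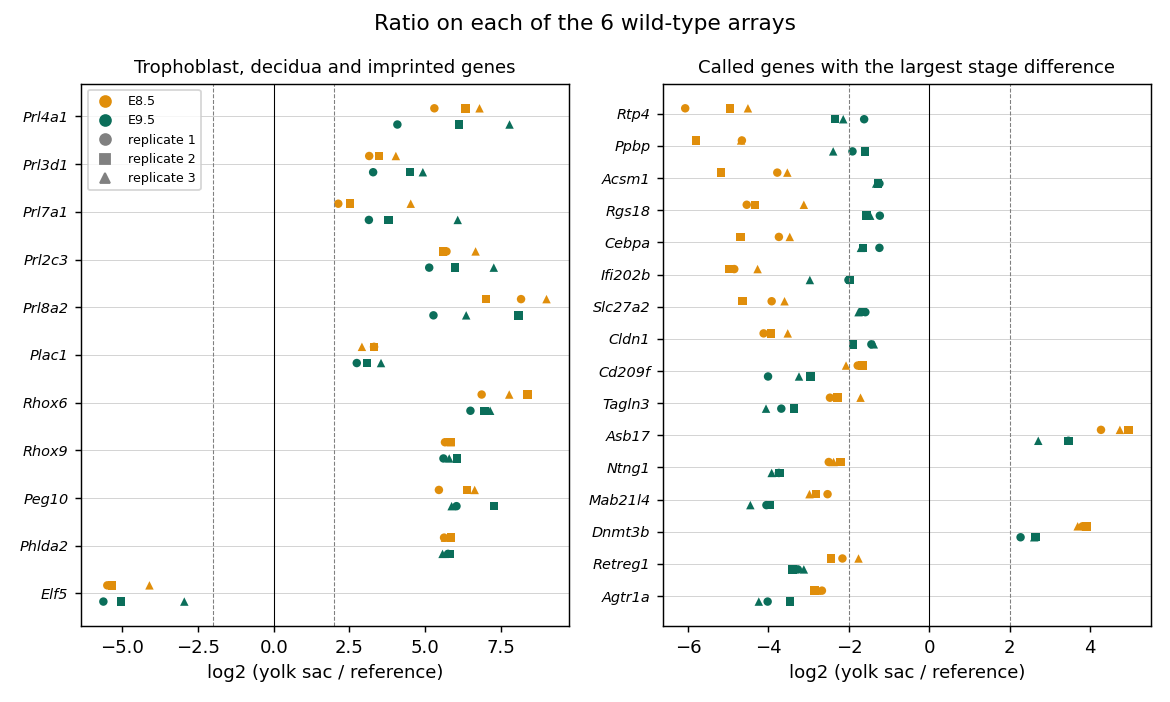
Log2 ratio on each of the 6 wild-type arrays for trophoblast, decidual and imprinted genes (left) and for the called genes with the largest stage difference (right); colour gives the stage, shape the replicate, and dashed lines mark 4-fold. Prl4a1, Prl7a1 and Prl8a2 spread over several log2 units, while Phlda2 and Rhox9 stay close together. The spreads of Prl3d1, Prl2c3, Rhox6 and Peg10 lie between these.

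On the reference side stood the organs of the newborn. Over 16 organ lists, 261 genes were tested, of which 169 were depleted and 2 enriched, with a median of -3.14. The share depleted over all genes tested was 15.1%. Neuronal and glial genes gave 21 depleted of 24 (median -4.08), skeletal muscle 20 of 22 (-3.78), fat 10 of 11 (-4.46), epidermis and hair 18 of 22 (-3.51) and heart muscle 14 of 18 (-3.19). Lung and airway gave 8 of 12, cartilage and bone 13 of 23, postnatal liver metabolism 13 of 22, stomach and intestine 12 of 18, kidney 7 of 10, pancreas 8 of 15, lens and retina 6 of 9 and smooth muscle 4 of 9. Hox genes gave 3 of 23, with a median of -1.1, near the share over all genes, and pituitary and adrenal genes 2 of 7. A gene dim in yolk sac passed the filter only where the reference was above background on all 6 arrays. Among those depleted, yolk sac was above background on no array for 12 neuronal, 6 pancreas, 5 kidney and 3 Hox genes. Without the filter, kidney gave 7 of 15 (median -0.66 against -3.22) and lens and retina 6 of 14 (-2.25 against -3.49). Neuronal and glial genes gave 21 of 28 (-3.81 against -4.08), and skeletal muscle was unchanged. Many of these calls depended on the background correction. With normexp and loess, neuronal and glial genes gave 5 of 24 (median -1.36), skeletal muscle 16 of 22, fat 8 of 11, epidermis and hair 13 of 22 and heart muscle 9 of 18. Under the same setting cartilage and bone gave 5 of 23, lung and airway 4 of 12, liver 10 of 22, stomach and intestine 8 of 18, lens and retina 4 of 9, smooth muscle 2 of 9 and kidney 1 of 10. Pancreas, Hox, and pituitary and adrenal genes then gave none. The calls of Hoxd8, Hoxa4 and Tg, the thyroid gene on the pituitary and adrenal list, were lost without some of the arrays. Hoxd8 was lost without E8.5 replicate 1 (-3.0) or replicate 3 (-3.03). Hoxa4 was lost without E8.5 replicate 1 (-2.76), 2 (-2.67) or 3 (-2.79) or E9.5 replicate 2 (-2.83), and Tg without E8.5 replicate 1 or 2 (-2.27 each) or E9.5 replicate 1 (-2.31) or 2 (-2.24).

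The lowest ratios belonged to genes known from many different organs. Spp1, osteopontin of bone and kidney, had -7.89, -7.57 and -7.54 at E8.5 and -7.91, -8.04 and -7.8 at E9.5, 222-fold below the reference (adjusted p = 3.06e-07). Cps1, the urea cycle enzyme of liver and gut, was 128-fold lower (-7.22 to -6.68). Smgc, a salivary gland mucin-like gene, was 126-fold and Atp1b4, a muscle gene, 122-fold lower. Cav1, the caveolin of fat, muscle and vessels, was 112-fold lower, but another Cav1 probe had -2.9. Other probes also read less for Smgc (-3.7), Chl1 (-3.82), Csta1 (-3.98) and Kcnj8 (-4.38). Cstdc6, Csta1 and Stfa3 of the stefin family were 95.8-fold, 87.7-fold and 75.3-fold lower; close copies of these genes may share probes. The fatty acid hydroxylase Cyp4a14 was 87-fold, the neural adhesion gene Chl1 77.5-fold and Smpx of muscle 75-fold lower. The potassium channel gene Kcnj8 was 66.9-fold and Fibin 66-fold lower.

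Where yolk sac was not above background on any array, the largest bounds included Kprp of skin (at least 86.8-fold) and Aspn of connective tissue (77.3-fold). Tnmd of tendon was at least 63-fold, bone sialoprotein Ibsp 55.3-fold, Cfhr2 47.2-fold, the liver enzyme Cyp3a16 45.7-fold, Tceal7 42.7-fold, Zcchc12 41.9-fold and the neuronal Gpm6a 39-fold lower. Of the brain list, Dcx was at least 29.7-fold, Map2 31.3-fold and Gria2 31.6-fold lower. With normexp and loess, the calls of Map2 (-2.17) and Gria2 (-2.02) were lost. Among organ genes seen in both channels, Myl1 of fast muscle was 62.6-fold, the liver enzyme Fbp1 60.8-fold, Plin1 of fat droplets 47.9-fold, Scgb3a2 of airways 43.7-fold, loricrin Lor of skin 36.5-fold and Ucp1 of brown fat 34.4-fold lower. Cryba1 of the lens was 30.1-fold and the ventricular myosin chain Myl2 22.6-fold lower.

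The only enriched members of the organ lists were 1 kidney and 1 liver gene. Podxl, the podocalyxin of podocytes and of vessels and blood progenitors, had 4.53, 4.68 and 4.78 at E8.5 and 4.64, 4.69 and 4.58 at E9.5, 25.1-fold above the reference, and its other probe had 4.49. Tdo2, the tryptophan dioxygenase of liver, which decidua also makes, had 3.47, 2.73 and 4.09 at E8.5 and 3.7, 3.4 and 3.53 at E9.5 and was 11.2-fold higher. With normexp and loess the Tdo2 call was lost (1.03). Podxl was the steadier of the pair.

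Few of the called genes differed between the stages. Of the 893 enriched genes 43 rose (4.82%) and 24 fell (2.69%) from E8.5 to E9.5, and of the 2475 depleted genes 118 rose (4.77%) and 32 fell (1.29%); over all genes tested, 5.01% rose and 2.6% fell (limma, adjusted p under 0.05). These 161 rises and 56 falls became 22 to 91 rises and 3 to 22 falls when any 1 array was left out, the lowest without E9.5 replicate 1. With replicate number as a block, or without E8.5 replicate 2 and E9.5 replicate 3 together, none passed. The counts of stage differences thus rest on the arrays included. Among the markers, Hbb-y rose by 0.78 ± 0.12 (adjusted p = 0.0228; lost in 5 of the 6 fits that left out 1 array) and Afp by 1.93 ± 0.16 (adjusted p = 0.00754). Rbp4 rose by 0.86, likewise lost in 5 of 6, and Spp2 by 1.26, and Pf4, a platelet chemokine that was not called, had -3.15, -3.2 and -3.19 at E8.5 and -0.44, -0.37 and -1.04 at E9.5.

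The largest rises were of genes called depleted that came closer to the newborn level. Rtp4, an interferon-induced chaperone of receptors, went from -6.07, -4.95 and -4.51 to -1.62, -2.35 and -2.14, and Ppbp, a platelet chemokine, from -4.66, -5.8 and -4.68 to -1.91, -1.6 and -2.39. Slc27a2, a fatty acid transporter, rose by 2.38 ± 0.27 and the claudin Cldn1 by 2.28 ± 0.21. Cebpa, Rgs18, Acsm1 and Ifi202b had differences of 2.44, 2.58, 2.89 and 2.39. Yolk sac was well above background on 4 of 6 arrays for Rtp4, on 3 for Ppbp, Cebpa, Rgs18, Acsm1, Ifi202b and Ntng1, and on 2 for Cldn1, so these sizes are set in part by the background level. Over all genes tested 5.01% rose. Of 20 mesenchyme genes 10 rose, as did 12 of 30 plasma proteins and 12 of 22 early haematopoietic, megakaryocyte and myeloid genes. Among them Col1a1 rose by 2.11 ± 0.11 (adjusted p = 0.00619). Dnmt3b showed the largest fall among enriched genes seen in both channels, by 1.3 ± 0.13 (adjusted p = 0.011). Ntng1, a neuronal netrin, fell by 1.43 ± 0.11. Dnmt3b and Ntng1 kept their stage calls whichever array was left out; Cldn1 lost it without E9.5 replicate 1 (2.21, adjusted p = 0.0535), and the other 13 genes chosen for their stage difference lost it without at least 3 of the 6 arrays.

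The mutant arrays of the series share the reference, and the difference from them was not tested here. Cubn had 5.18 to 5.55 over the 6 Arid1a mutant arrays, Rhox5 5.98 to 6.66, Lin28a 6.02 to 6.26, Hbb-y 6.75 to 8.06 and Spp1 -7.8 to -7.02. Prl4a1 ranged from 1.66 to 8.21 there.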

How the data were processed

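Wild-type yolk sac RNA (Cy5) and a neonatal whole-mouse reference (Cy3) were hybridised to 2-colour arrays, 3 per stage. Per the file headers, the authors deposited Agilent Feature Extraction output with intensity per spot, background-subtracted and dye-normalized, a log10 ratio of red over green, and flags. The authors' deposited value table holds log2 ratios that are centred per gene. It was used as an alternative.

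The log2 ratio of the deposited processed intensities was taken, control and outlier spots were left out, and spots of a probe were averaged. Probes were kept if well above background in Cy5 on all 3 arrays of a stage or in Cy3 on all 6 (23538 probes). The kept probe with the highest mean intensity stood for its gene (16383 genes). Array names were updated through RefSeq: 23483 probes by accession, 6678 by symbol and 2887 by older symbol, while 8126 kept the file's name.

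Ratios were fitted with limma 3.58.1 (R 4.3.3). Its treat test against 4-fold called enriched and depleted genes, and its moderated contrast of E9.5 and E8.5 called stage differences, both at a Benjamini-Hochberg adjusted p under 0.05. The p-values measure the spread between these samples. The precision is limited by 3 arrays per stage (median SE 0.0624). The scripts were tested on simulated data. The members and lists were chosen with earlier results of these data known.

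Genes were named by rule: the markers and Arid1a, the 15 highest and 15 lowest ratios seen in both channels, the 10 largest bounds in each direction, the 8 largest stage rises and 8 falls, and 3 members per list furthest from 0. A few genes that this rule names are not reported here. Other genes in the text were chosen after their values were seen. Alternatives covered background correction, normalization, probe choice, filters, fold, blocks, the arrays included and the deposited value table.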

Additional observations from a re-analysis of the deposited data

Results flagged for a closer look

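Among the 6 wild-type arrays, 14 genes had 1 array far from the other 5, and chance alone flags about 1 in 20 such groups. The screen covered the genes named by the rule or in the text, 186 of them called, less the few not reported. Whether 14 exceeds the share that chance flags was not tested. In E8.5 replicate 2, Tdh had 5.47 (others 5.23 to 5.28), Fmr1nb 5.65 (4.72 to 4.93), Hand1 2.83 (2.14 to 2.37) and Ms4a1 -1.58 (-2.82 to -2.53), while Soat2 was low at 4.35 (4.67 to 4.72). Also low there were Amn at 3.19 (3.42 to 3.49), Slc2a2 at 3.4 (3.83 to 3.9), Slc39a8 at 2.85 (3.15 to 3.28) and Lamp2 at -1.11 (-0.83 to -0.71). In E9.5 replicate 1, Fabp1 had -4.84 (-4.58 to -4.48), S100a8 -4.58 (-5.19 to -4.99) and Neb -5.53 (-5.01 to -4.75). In E9.5 replicate 2, Lrp2 had 4.01 (3.68 to 3.74) and Xist, the RNA of the inactive X chromosome, -6.54 (-2.14 to -0.65).

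The E9.5 minus E8.5 difference passed limma's contrast for 43 of the genes named by the rule or in the text. The 8 largest rises and 8 largest falls among them were chosen by this same contrast. Other genes were chosen after their values were seen, so the count is no share of an unselected set. Over all genes tested, 5.01% rose and 2.6% fell. The larger rises were 3.14 for Rtp4, 3.08 for Ppbp, 2.89 for Acsm1, 2.58 for Rgs18, 2.56 for Pf4, 2.44 for Cebpa, 2.39 for Ifi202b, 2.38 for Slc27a2, 2.28 for Cldn1 and 2.11 for Col1a1. Afp rose by 1.93, Lox by 1.59, Ptprc by 1.58, Col3a1 by 1.56, B2m by 1.27, Spp2 by 1.26, Fga by 1.23 and Fgg by 1.08. Smaller rises were 0.92 for Stab2, 0.86 for Rbp4, 0.84 for S100g, 0.79 for Hba-a1, 0.78 for Hbb-y, 0.73 for Robo4, 0.68 for Emcn, 0.65 for Cd36, 0.61 for Slc7a9, 0.57 for Slc40a1, 0.55 for Igf2 and 0.43 for Ctsc. The other side held Cd209f (-1.56), Tagln3 (-1.55), Asb17 (-1.44), Ntng1 (-1.43), Mab21l4 (-1.37), Dnmt3b (-1.3), Retreg1 (-1.14), Agtr1a (-1.13), Reg1 (-0.59), Slc16a1 (-0.57), Klf1 (-0.55), Epor (-0.49) and Arid1a (-0.36). The calls of Afp, Pf4, Col1a1, Col3a1, B2m, Fga, Dnmt3b and Ntng1 held whichever 1 array was left out, and the other 35 were lost without at least 1 array.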

How the results depend on the processing

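With normexp and loess, 165 genes were enriched and 610 depleted (E8.5 148 and 574, E9.5 154 and 559) and 109 fell between the stages. Requiring both channels above background left 1013 depleted (E8.5 1007, E9.5 921), so that 40.6% of called genes were enriched against 26.5%; that filter moved the median of all genes from -0.13 to 0.18. Testing against 2-fold gave 3020 enriched and 4695 depleted (E8.5 2837 and 4469, E9.5 2830 and 4264), and against 8-fold 222 and 966 (173 and 796, 184 and 833). Stage calls moved most: with all 12 arrays 262 rose and 136 fell, with scan as a random block 102 fell, and without a filter 24 fell. Leaving out 1 array gave 22 to 91 rises and 3 to 22 falls. With the replicate block 0 rose and 0 fell in limma's contrast. The deviations of same-numbered arrays of the 2 stages correlated at r = 0.176, 0.278 and 0.081. Those of arrays with different numbers correlated at -0.225 to 0.126. In the random-block fit the correlation within scans was 0.159. The main fit took neither replicate number nor scan as a block. The replicate number equals the scan on all 12 arrays, so both blocks describe the same grouping, fixed or random. Without E8.5 replicate 2 and E9.5 replicate 3 together, a setting chosen after seeing the data, 0 rose and 0 fell. Enriched and depleted counts stayed at 824 to 889 and 2322 to 2490 with 1 array left out. Signs turned for Arid1a (0.24 with median centring, 0.05 at E8.5 alone), Kdm5d (-0.08 and -0.23) Alas2 (0.23 with median centring), Mki67 (0.01 with normexp, 0.61 with median centring, 0.85 with the mean of probes), Ptprz1 (-0.81) and Add2 (1.03, both with the mean of probes), and, all near 0, H19 (-0.07) and Slc40a1 (-0.2) at E8.5 alone and Pecam1 (0.01) at E9.5 alone. The causes were not tested. Slide as a block was not run, since the headers name the same slide for replicates 2 and 3; scan took its place.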
